A study of Homo sapiens with 19 samples.

Results

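The 125 regulatory elements described here are those whose deposited names consist of TRE6_020S, a 4-digit number and an orientation, .fwd or .rev. They were taken by name from the 6 tables that hold them, and no measured value was used in the choice. They belong to 63 numbered loci, of which 62 were listed in both orientations and 1 in only 1, and they make up 125 of the 3422 element names of the whole series and 125 of the 3196 names of the plasmid pool that carries them. The sources used here do not say what TRE6_020S stands for, and the elements' sequences, genome positions and neighbouring genes were not used here, so each element is identified by its deposited name.

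The data come from QUASARR-seq, a massively parallel reporter assay in which 1 plasmid reports both activities of a DNA element, as a promoter and as an enhancer. Plasmid pools were electroporated into cells of the human leukaemia line K-562, and the cells were harvested after 6 h. The pool described here carried its elements with 3 minimal promoters, named pMYC, pAPOBEC3F and pGAPDH after MYC (a transcription factor of cell growth), APOBEC3F (an antiviral cytidine deaminase) and GAPDH (a glycolytic enzyme). Each plasmid had a barcode named paBC, whose RNA over DNA was taken as the promoter read-out, and a barcode named eaBC, whose RNA over DNA was taken as the enhancer read-out. Each read-out was compared between 2 RNA libraries (reporter transcripts of electroporated K-562 cells, replicates 1 and 2) and 2 DNA libraries (plasmid recovered from the same electroporated K-562 cells, replicates 1 and 2). All 8 libraries carried the same plasmid pool, and the 3 tables of a read-out, 1 per minimal promoter, were read from the same 4 libraries. Per the labels' protocols, a biological replicate comprised 2 technical replicates, each pooled from 5 electroporations, and biological replicates were made on different days. Whether replicates 1 and 2 of these libraries are a biological or a technical pair is not stated, and no p-value below covers more than the spread between these libraries. The fits made here share variance over all elements or loci, and a small p-value need not mean that the replicates of that element agreed. The tables list reporter elements and no genes, so the identity of the cell line could not be checked in them.

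A promoter starts transcription at its own position and usually has a preferred direction. An enhancer raises transcription from a promoter elsewhere, and by the classical definition it does so in either orientation. Many human elements do both. A minimal promoter is a short core promoter with little activity of its own, on which the effect of a neighbouring element can be read, and core promoters differ in how strongly they respond to a given enhancer.

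Of the 125 elements, 107 were listed in all 6 tables, 1 in 5, 13 in 4 and 4 in 2. Values in the promoter read-out were missing for 9 elements under pMYC, 10 under pAPOBEC3F and 2 under pGAPDH. The promoter and enhancer tables thus held 116 and 116 of the elements under pMYC, 115 and 114 under pAPOBEC3F, and 123 and 123 under pGAPDH, and every listed element had a test. RNA reads per library in the promoter read-out ran from 2116336 to 2360455 under pMYC, 1679872 to 1802390 under pAPOBEC3F and 9080385 to 10167588 under pGAPDH. In the enhancer read-out they ran from 409486 to 434897 under pMYC, 200722 to 217209 under pAPOBEC3F and 2930240 to 3142007 under pGAPDH. The TRE6_020S elements were better covered than the pool: under pMYC in the promoter read-out their median was 1836.5 and 1898 DNA reads in replicates 1 and 2, against 1005 and 1027 over all elements. Their thinnest table was the pAPOBEC3F enhancer read-out, with medians of 86.5 and 99 RNA reads. The number of barcodes behind each element is not given in the sources used here, and the reads carry no molecular identifiers.

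The log2 RNA/DNA ratio of an element was taken per replicate, on the authors' scale, with 0.5 reads added to each value, and 1 unit is a 2-fold difference. In the promoter read-out the ratios of the elements lay mostly above 0 under pMYC and pAPOBEC3F and were spread around 0 under pGAPDH. The zero point of each table was set separately, so these signs do not rank the minimal promoters or show RNA above DNA. The median ratio of the TRE6_020S elements was 0.38 under pMYC (0.24 over all elements), 0.31 under pAPOBEC3F (0.24) and -0.06 under pGAPDH (-0.07). Their range ran from -1.93 to 7.23 under pMYC, from -1.30 to 3.74 under pAPOBEC3F and from -1.56 to 5.65 under pGAPDH. The middle of the distribution was narrower under pGAPDH, as in the whole pool. Its interquartile width was 0.55 (0.72 over all elements), against 1.10 under pMYC (1.48) and 1.36 under pAPOBEC3F (2.07). The median SD between replicates of a TRE6_020S element was 0.058 under pMYC, 0.073 under pAPOBEC3F and 0.032 under pGAPDH.

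Calls were taken at a limma adjusted p under 0.05 in the authors' deposited tables, those of the promoter read-out first. In these calls, higher and lower are relative to the zero point of the table. The authors' deposited table for pMYC listed 73 of 116 TRE6_020S elements higher in RNA (62.9%; 52.3% of all elements) and 23 lower (19.8%; 27.8% of all elements). The authors' deposited table for pAPOBEC3F listed 62 of 115 higher (53.9%; 50.7% of all elements) and 31 lower (27.0%; 30.6% of all elements). The authors' deposited table for pGAPDH listed 46 of 123 higher (37.4%; 36.3% of all elements) and 59 lower (48.0%; 46.6% of all elements). The pAPOBEC3F and pGAPDH shares of the TRE6_020S elements thus lay close to those of the whole pool. The splits changed in limma fits made here with each table centred on its own median, which differ from the deposited fits in method and in zero point. They called 57 higher and 38 lower under pMYC, 54 and 41 under pAPOBEC3F, and 52 and 50 under pGAPDH. edgeR on the recovered reads called 55 higher and 46 lower under pMYC, 47 and 55 under pAPOBEC3F, and 52 and 51 under pGAPDH.

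The strongest promoter signal of the set belonged to TRE6_020S0033.rev. Under pMYC it had 14588 and 16169 RNA reads in replicates 1 and 2, against 373 and 385 DNA reads, and its log2 RNA/DNA ratio was 7.23 ± 0.02 (SD, n = 2). Under pGAPDH it had 33937 and 37697 RNA reads, against 452 and 430 DNA reads, a ratio of 5.65 ± 0.06 (SD, n = 2). Both values lay in the top percentile of their tables, and the authors' deposited table gave a limma adjusted p of 1.08e-17 for the one under pGAPDH and listed that under pMYC as 0. The element had no value under pAPOBEC3F. The same locus in the other orientation, TRE6_020S0033.fwd, had ratios of 1.03 ± 0.14 under pMYC, 1.55 ± 0.08 under pAPOBEC3F and -0.15 ± 0.10 under pGAPDH (n = 2 each, SD). These values lay far below those of the reverse orientation wherever both were measured.

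TRE6_020S0044.fwd followed under pMYC. It had 3003 and 3253 RNA reads, against 464 and 460 DNA reads, a ratio of 4.64 ± 0.0008 (SD, n = 2), and 1.62 ± 0.22 under pGAPDH (SD, n = 2), where its DNA reads were only 55 and 53. Its reverse orientation had ratios of 3.16 ± 0.08 under pMYC and 1.04 ± 0.15 under pGAPDH (n = 2 each, SD). All of these RNA values were called higher in the authors' deposited table, with the largest limma adjusted p, 4.52e-07, for TRE6_020S0044.fwd under pGAPDH. Neither orientation had a value under pAPOBEC3F.

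Under pAPOBEC3F the leading elements were TRE6_020S0015.rev, TRE6_020S0069.fwd and TRE6_020S0055.rev. TRE6_020S0015.rev had 6614 and 6594 RNA reads there, against 2749 and 2796 DNA reads, and its ratio was 3.74 ± 0.09, beside 2.83 ± 0.14 under pMYC and 0.54 ± 0.05 under pGAPDH (n = 2 each, SD). TRE6_020S0069.fwd had 1536 and 1651 RNA reads, against 668 and 709 DNA reads, and ratios of 3.70 ± 0.06 under pAPOBEC3F, 2.90 ± 0.0032 under pMYC and 1.11 ± 0.0019 under pGAPDH (n = 2 each, SD). These 2 elements and TRE6_020S0055.rev had the same order of minimal promoters, with the highest ratio under pAPOBEC3F and the lowest under pGAPDH. TRE6_020S0055.rev, with 3864 and 4121 RNA reads against 1782 and 1878 DNA reads under pAPOBEC3F, had ratios of 3.62 ± 0.06 under pAPOBEC3F, 3.30 ± 0.04 under pMYC and 0.95 ± 0.01 under pGAPDH (n = 2 each, SD). The ratios share no common zero point across minimal promoters, and differences between them are tested further on.

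At the low end stood TRE6_020S0050.rev. Under pMYC it had 24 and 17 RNA reads, against 275 and 307 DNA reads, and a ratio of -1.93 ± 0.55 (SD, n = 2). Its ratio was -1.30 ± 0.42 under pAPOBEC3F and -1.56 ± 0.03 under pGAPDH (n = 2 each, SD), so it was the lowest TRE6_020S element of all 3 promoter tables. The authors' deposited table gave limma adjusted p-values of 5.4e-13 under pMYC, 9.95e-06 under pAPOBEC3F and 1.19e-11 under pGAPDH for it. TRE6_020S0010.rev, with 4147 and 4590 RNA reads against 6339 and 6343 DNA reads under pGAPDH, had a ratio of -1.23 ± 0.003 there, beside -0.59 ± 0.03 under pMYC and -0.14 ± 0.03 under pAPOBEC3F (n = 2 each, SD).

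Ratios in the enhancer read-out were smaller and noisier. The median of the TRE6_020S elements was 0.30 under pMYC (0.19 over all elements), 0.10 under pAPOBEC3F (0.09) and -0.01 under pGAPDH (-0.01). The highest values were 2.79 under pMYC, 2.26 under pAPOBEC3F and 1.02 under pGAPDH, and the lowest were -0.99, -0.60 and -0.62 under the same 3 minimal promoters. The median SD between replicates was 0.095 under pMYC, 0.15 under pAPOBEC3F and 0.058 under pGAPDH.

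For pMYC, the authors' deposited table of the enhancer read-out had 63 of 116 TRE6_020S elements higher (54.3%; 40.4% of all elements) and 5 lower (4.31%; 7.38% of all elements). The authors' deposited table for pAPOBEC3F listed 42 of 114 higher as enhancers (36.8%; 30.1% of all elements) and 6 lower (5.26%; 7.38% of all elements). The authors' deposited table for pGAPDH listed 25 of 123 higher as enhancers (20.3%; 22.2% of all elements) and 25 lower (20.3%; 18.5% of all elements). The share higher under pMYC was above that of the pool, and so was the read depth of these elements, whose part in the difference was not tested. With each table centred on its median, limma fits made here called 47 higher and 18 lower under pMYC, 32 and 16 under pAPOBEC3F, and 28 and 24 under pGAPDH. In the same order of minimal promoters, edgeR called 46 and 21, 31 and 21, and 28 and 27. Limma fits made here without DNA replicate 1 or DNA replicate 2 gave fewer higher elements under pAPOBEC3F than the deposited fit. The small counts of lower elements differed both ways. Under pMYC and pAPOBEC3F they were smaller without DNA replicate 2 and larger without RNA replicate 1 or 2. Under pGAPDH the count was smaller without RNA replicate 2. Such fits have 1 library on 1 side. They differ from the deposited fit in the method as well as in the library left out, and the 2 were not separated.

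TRE6_020S0069 had high enhancer ratios in both orientations and under all 3 minimal promoters. Its forward orientation had 1189 and 1160 RNA reads, against 766 and 717 DNA reads, under pMYC, and ratios of 2.15 ± 0.04 under pMYC, 2.25 ± 0.01 under pAPOBEC3F and 0.86 ± 0.01 under pGAPDH (n = 2 each, SD). Its reverse orientation, with 672 and 742 RNA reads against 417 and 425 DNA reads under pMYC, had ratios of 2.23 ± 0.0017, 2.26 ± 0.27 and 1.02 ± 0.02 under the same 3 minimal promoters (n = 2 each, SD). TRE6_020S0069.fwd and TRE6_020S0069.rev had the highest means of all TRE6_020S elements in the pGAPDH enhancer table. The authors' deposited table called all 6 of these enhancer values higher, with the largest limma adjusted p, 1.85e-19, for TRE6_020S0069.rev under pGAPDH.

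The highest enhancer ratio under pMYC was that of TRE6_020S0044.fwd, 2.79 ± 0.0014 (SD, n = 2), from 283 and 250 RNA reads against 119 and 97 DNA reads. Under pGAPDH its ratio was 0.59 ± 0.39 (SD, n = 2), from 47 and 45 RNA reads against 11 and 14 DNA reads, and was not called. TRE6_020S0055.rev had enhancer ratios of 2.26 ± 0.06 under pMYC, 2.09 ± 0.09 under pAPOBEC3F and 0.22 ± 0.05 under pGAPDH (n = 2 each, SD), and all 3 were called higher in the authors' deposited table. TRE6_020S0033.rev, the strongest promoter, had an enhancer ratio of 1.14 ± 0.30 under pMYC and 0.0022 ± 0.40 under pGAPDH (n = 2 each, SD), from 50 and 64 RNA reads against 77 and 68 DNA reads under pMYC.

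Low enhancer values were few under pMYC and pAPOBEC3F. TRE6_020S0050.rev was lowest under pMYC at -0.99 ± 0.62 (SD, n = 2), from 20 and 11 RNA reads against 87 and 83 DNA reads. The lowest value under pAPOBEC3F rested on 1 library: TRE6_020S0063.fwd had 168 RNA reads in replicate 1 and 46 in replicate 2, against 649 and 627 DNA reads. Its ratio was 0.40 in replicate 1 and -1.60 in replicate 2, a mean of -0.60 ± 1.42 (SD, n = 2), while the authors' deposited table called it lower with a limma adjusted p of 1.41e-06. In the other 5 tables its ratio was above 0 in both replicates.

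Among the 107 elements listed in all 6 tables, 18 were called higher in every table (16.8%; 14.9% of the 2224 elements of the pool listed in all 6), and 2 were called lower in every table (1.87%; 1.80% of the pool). The 18 came from 13 loci, and 5 of these, TRE6_020S0007, TRE6_020S0053, TRE6_020S0057, TRE6_020S0066 and TRE6_020S0069, were higher in every table in both orientations. Not all were strong: TRE6_020S0007.fwd had ratios of 0.65 ± 0.04 under pMYC, 0.35 ± 0.08 under pAPOBEC3F and 0.39 ± 0.02 under pGAPDH in the promoter read-out (n = 2 each, SD). TRE6_020S0066.fwd was stronger, with 1.79 ± 0.03, 2.20 ± 0.02 and 0.57 ± 0.04 under the same 3 minimal promoters (n = 2 each, SD). The 2 elements lower in every table were TRE6_020S0010.rev and TRE6_020S0042.fwd, and the promoter ratios of TRE6_020S0042.fwd were -0.50 ± 0.10 under pMYC, -0.55 ± 0.03 under pAPOBEC3F and -0.38 ± 0.01 under pGAPDH (n = 2 each, SD). A further 2 elements, TRE6_020S0004.fwd and TRE6_020S0067.fwd, were called in none of the 6 tables (1.87%; 1.93% of the pool), and 27 (25.2%; 19.6% of the pool) had calls in both directions.

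In the promoter read-out alone, 35 of the 107 were higher under all 3 minimal promoters (32.7%; 30.4% of the pool) and 17 were lower under all 3 (15.9%; 21.4% of the pool). Opposite calls against pGAPDH were mostly lower under pGAPDH: 15 elements were higher under pMYC and lower under pGAPDH (10.3% of the pool), and 17 were higher under pAPOBEC3F and lower under pGAPDH (11.9% of the pool). The reverse was found for 0 elements between pMYC and pGAPDH (0.585% of the pool) and for 2 between pAPOBEC3F and pGAPDH, TRE6_020S0042.rev and TRE6_020S0043.fwd (1.93% of the pool). Between pAPOBEC3F and pMYC, only TRE6_020S0056.fwd was higher under pAPOBEC3F and lower under pMYC (0.935%; 0.495% of the pool). Only TRE6_020S0043.fwd was lower under pAPOBEC3F and higher under pMYC (0.935%; 0.540% of the pool). An example of the elements lower under pGAPDH was TRE6_020S0074.rev, with 1.27 ± 0.14 under pMYC and 1.40 ± 0.01 under pAPOBEC3F, against -0.73 ± 0.04 under pGAPDH (n = 2 each, SD). Because the zero point of each table was set separately, such opposite calls do not by themselves measure a difference between minimal promoters.

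The promoter and enhancer read-outs were set side by side without a test, since paBC and eaBC were read in different libraries. Under pMYC, both read-outs had a higher call for 57 TRE6_020S elements, the promoter read-out alone for 16 and the enhancer read-out alone for 6. Under pAPOBEC3F these numbers were 41, 20 and 1, and under pGAPDH 20, 26 and 5. Of the elements higher in the enhancer read-out, 90.5% under pMYC, 97.6% under pAPOBEC3F and 80.0% under pGAPDH had a higher call as promoters too, against 92.7%, 95.3% and 82.7% over all elements. Of those called higher as promoters, 78.1%, 67.2% and 43.5% were higher as enhancers too, against 71.7%, 56.6% and 50.7% over all elements. Across the TRE6_020S elements, the ratios of the read-outs correlated with Pearson's r = 0.80 under pMYC (n = 116), 0.749 under pAPOBEC3F (n = 114) and 0.40 under pGAPDH (n = 123). Without both orientations of TRE6_020S0033 these values were 0.883, 0.758 and 0.61. The elements are not independent samples, since orientations share a sequence and all share the libraries and their depth.

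Some elements ranked very differently in the 2 read-outs. TRE6_020S0074.rev stood at percentile 13.0 of all elements in the promoter read-out under pGAPDH and at percentile 88.5 in the enhancer read-out, with an enhancer ratio of 0.38 ± 0.08 (SD, n = 2) from 341 and 363 RNA reads against 111 and 115 DNA reads. TRE6_020S0056.fwd was low in the promoter read-out under pMYC, at percentile 9.0 with a ratio of -0.69 ± 0.13, and at percentile 74.2 in the enhancer read-out with 0.61 ± 0.58 (n = 2 each, SD). In the opposite direction, TRE6_020S0033.fwd stood at percentile 73.2 in the promoter read-out under pAPOBEC3F and at percentile 31.0 in the enhancer read-out. The enhancer values rest on few reads here, 23 and 30 RNA reads for TRE6_020S0056.fwd under pMYC and 24 and 30 for TRE6_020S0033.fwd under pAPOBEC3F.

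Orientation was compared within each locus, forward minus reverse, from the reads of both orientations in the same libraries, so that library scaling cancels. In the promoter read-out most loci differed by orientation, as they did in the whole pool. limma called 44 of 55 TRE6_020S loci under pMYC (80.0%; 63% of all loci), 33 of 54 under pAPOBEC3F (61.1%; 57.3% of all loci) and 43 of 61 under pGAPDH (70.5%; 72.1% of all loci). The forward orientation was the higher one in 27 of the 44 loci under pMYC (40.3% of all tested loci of the pool were called higher in forward), in 26 of the 33 under pAPOBEC3F (35.7%) and in 27 of the 43 under pGAPDH (39.7%). As a share of the called loci this was 61.4% under pMYC (64.0% over the pool), 78.8% under pAPOBEC3F (62.2%) and 62.8% under pGAPDH (55.0%). The median difference was 0.20 under pMYC (0.13 over all loci), 0.23 under pAPOBEC3F (0.14) and 0.09 under pGAPDH (0.04). Differences of at least 1 on the log2 scale were called for 14 loci under pMYC (25.5%; 11.9% of all loci), 8 under pAPOBEC3F (14.8%; 13.8% of all loci) and 2 under pGAPDH (3.28%; 6.72% of all loci). The count of 33 loci called at any size of difference under pAPOBEC3F was smaller without DNA replicate 1 or DNA replicate 2. The orientations of a locus sit on plasmids with different barcodes, and the effect of the barcodes themselves was not tested.

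TRE6_020S0033 had the largest difference, -6.19 ± 0.10 under pMYC and -5.80 ± 0.07 under pGAPDH (SE from limma), with adjusted p-values of 1.53e-09 and 1.39e-11. Under pMYC the forward orientation had 202 and 187 RNA reads, against 357 and 346 DNA reads, and the reverse orientation had 14588 and 16169 RNA reads, against 373 and 385 DNA reads. The orientations thus had similar plasmid coverage, and their RNA reads were far apart in both replicates. TRE6_020S0055 was also higher in reverse, by -1.54 ± 0.05 under pMYC and -1.22 ± 0.05 under pAPOBEC3F (SE, limma adjusted p = 2.5e-08 and 9.79e-08), and by -0.61 ± 0.04 under pGAPDH (SE, limma adjusted p = 4.65e-07). TRE6_020S0015 had -1.34 ± 0.05 under pAPOBEC3F (SE, limma adjusted p = 2.78e-08).

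The forward orientation was the higher one at TRE6_020S0021 under pMYC and pAPOBEC3F, and at TRE6_020S0010 and TRE6_020S0072. TRE6_020S0021.fwd had 163 and 141 RNA reads, against 233 and 247 DNA reads, under pMYC, while TRE6_020S0021.rev had 28 and 36 RNA reads, against 242 and 229 DNA reads. The difference was 2.21 ± 0.28 under pMYC and 2.40 ± 0.28 under pAPOBEC3F (SE, limma adjusted p = 0.000154 and 7.41e-05), while under pGAPDH it was 0.16 ± 0.11 and not called (SE, limma adjusted p = 0.212). TRE6_020S0010 differed by 1.59 ± 0.05 under pMYC, 1.25 ± 0.07 under pAPOBEC3F and 1.00 ± 0.03 under pGAPDH (SE), so its forward orientation was higher under all 3 minimal promoters. TRE6_020S0072 differed by 1.30 ± 0.06 under pMYC and 1.21 ± 0.08 under pAPOBEC3F, and by 0.12 ± 0.04 under pGAPDH (SE).

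Of the 49 loci tested under all 3 minimal promoters in the promoter read-out, 15 were higher in forward orientation under all 3 (30.6%; 21.2% of the 932 such loci of the pool) and 4 in reverse orientation under all 3 (8.16%; 10.9% of the pool). The loci higher in reverse under all 3 were TRE6_020S0015, TRE6_020S0018, TRE6_020S0042 and TRE6_020S0055. Only TRE6_020S0014 was called under none (2.04%; 8.58% of the pool), and TRE6_020S0047, TRE6_020S0053 and TRE6_020S0059 were called in opposite directions under different minimal promoters (6.12%; 9.55% of the pool). TRE6_020S0047 had forward minus reverse differences of 0.41 ± 0.08 under pMYC and 0.83 ± 0.15 under pAPOBEC3F, and of -0.41 ± 0.06 under pGAPDH (SE).

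Fewer loci were called for orientation in the enhancer read-out, where reads were fewer and the SDs between replicates larger. Under pMYC the TRE6_020S elements had a median of 390 DNA reads in replicate 1 there, against 1836.5 in the promoter read-out. The part of depth in this difference between read-outs was not tested. limma called 15 of 55 under pMYC (27.3%; 13.5% of all loci), 5 of 53 under pAPOBEC3F (9.43%; 5.02% of all loci) and 16 of 61 under pGAPDH (26.2%; 17.1% of all loci). Of these, the reverse orientation was the higher one in 9 under pMYC (8.78% of all tested loci of the pool were called higher in reverse), 3 under pAPOBEC3F (2.98%) and 14 under pGAPDH (13.4%). The pool leaned the same way: the reverse was higher in 60% of the called TRE6_020S loci under pMYC (64.8% over the pool), 60% under pAPOBEC3F (59.3%) and 87.5% under pGAPDH (78.6%). Of the 48 loci tested under all 3 minimal promoters, 25 were called under none (52.1%; 70.4% of the 906 such loci of the pool) and 1, TRE6_020S0053, was higher in reverse under all 3 (2.08%; 1.43% of the pool). These counts changed with the library left out. Without DNA replicate 1 or 2 fewer loci were called under pMYC and pAPOBEC3F. Without RNA replicate 1 or 2 more were called under pAPOBEC3F and fewer under pGAPDH. The adjusted p-values also differ between fits at like differences, as at TRE6_020S0072. This locus was called under pMYC at 0.65 ± 0.16 and not called under pAPOBEC3F at 0.68 ± 0.14 (SE, limma adjusted p = 0.00271 and 0.0547). With the replicate number as a block, 3 loci were called under pAPOBEC3F. The read depth of the TRE6_020S loci was above that of the pool, and its part in the counts was not tested.

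TRE6_020S0055 had the largest enhancer differences by orientation among the loci called under pMYC and pAPOBEC3F. TRE6_020S0055.fwd had 209 and 246 RNA reads, against 385 and 377 DNA reads, under pMYC, while TRE6_020S0055.rev had 1090 and 1167 RNA reads, against 684 and 639 DNA reads. The difference was -1.52 ± 0.10 under pMYC and -1.64 ± 0.11 under pAPOBEC3F (SE, limma adjusted p = 4.62e-15 and 0.0014). Both were in the direction of the promoter read-out, and under pGAPDH the difference was -0.12 ± 0.06 and not called (SE, limma adjusted p = 0.201). TRE6_020S0010 differed by 0.79 ± 0.10 under pMYC and 0.96 ± 0.11 under pAPOBEC3F (SE, limma adjusted p = 4.74e-08 and 0.00916), with the forward orientation higher, and by -0.09 ± 0.05 under pGAPDH, which was not called (SE, limma adjusted p = 0.291). TRE6_020S0069, with high enhancer ratios in both orientations, had differences of -0.08 ± 0.08 under pMYC, -0.01 ± 0.23 under pAPOBEC3F and -0.16 ± 0.06 under pGAPDH (SE, limma adjusted p = 0.573, 0.985 and 0.0762). In the promoter read-out the same locus differed by 0.71 ± 0.05 under pMYC, 1.17 ± 0.12 under pAPOBEC3F and 0.11 ± 0.05 under pGAPDH (SE, limma adjusted p = 4.09e-06, 2.03e-05 and 0.0703), and the pGAPDH difference was not called. The orientation difference was not compared between read-outs by a test.

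Across loci, the forward and reverse ratios correlated with Pearson's r = 0.538 under pMYC (n = 55), 0.839 under pAPOBEC3F (n = 54) and 0.333 under pGAPDH (n = 61) in the promoter read-out. Without TRE6_020S0033 the pMYC and pGAPDH values were 0.682 and 0.646. In the enhancer read-out they were 0.679 under pMYC (n = 55), 0.643 under pAPOBEC3F (n = 53) and 0.622 under pGAPDH (n = 61). These are descriptions across loci that share libraries and depth. For comparison, the replicates of the same elements correlated at 0.989, 0.969 and 0.992 in the promoter read-out and at 0.89, 0.752 and 0.692 in the enhancer read-out, in the order pMYC, pAPOBEC3F, pGAPDH.

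The overall level differed between the minimal promoters. Over all elements shared by 2 minimal promoters, the RNA reads per DNA read in the promoter read-out were 4.61-fold lower at the median under pMYC than under pGAPDH, 6.70-fold lower under pAPOBEC3F than under pGAPDH, and 1.42-fold lower under pAPOBEC3F than under pMYC. These folds were, in the enhancer read-out, 5.75, 10.5 and 1.83. The comparisons that follow are relative to these medians, so "higher" means a larger share than the median shared element. The 2 comparisons with pGAPDH share the pGAPDH reads and are not independent.

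In the promoter read-out, limma called 56 of 114 TRE6_020S elements higher under pMYC than under pGAPDH (40.5% of all elements) and 37 lower (35.6% of all elements). Under pAPOBEC3F against pGAPDH, 54 of 115 were higher (42.8% of all elements) and 41 lower (39.7% of all elements). Under pAPOBEC3F against pMYC, 30 of 108 were higher (26.5% of all elements) and 20 lower (17% of all elements). Without centring on the median, 1 was higher and 113 lower for pMYC against pGAPDH, 0 and 114 for pAPOBEC3F against pGAPDH, and 3 and 80 for pAPOBEC3F against pMYC. The count lower under pAPOBEC3F than under pMYC was 13 without DNA replicate 1 and 40 without RNA replicate 2, and the count higher was 19 without DNA replicate 1. The reads under different minimal promoters come from different barcodes, whose own effect was not tested.

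The elements highest under pMYC relative to pGAPDH were TRE6_020S0044.fwd, by 2.66 ± 0.15, TRE6_020S0055.rev, by 1.98 ± 0.04, and TRE6_020S0015.rev, by 1.92 ± 0.04 (SE, limma adjusted p = 1.3e-11, 3.91e-18 and 8.97e-18). TRE6_020S0055.rev had 7324 and 8072 RNA reads, against 2826 and 2959 DNA reads, under pMYC, and 9281 and 10402 RNA reads, against 3109 and 3202 DNA reads, under pGAPDH. Its RNA reads per DNA read were thus close under both minimal promoters, while the median shared element had several-fold fewer under pMYC. TRE6_020S0033.rev also lay above the median shift under pMYC, by 1.20 ± 0.05 (SE, limma adjusted p = 1.78e-13). At the other end, TRE6_020S0049.fwd had 34 and 42 RNA reads, against 388 and 352 DNA reads, under pMYC, and 1272 and 1532 RNA reads, against 1089 and 1101 DNA reads, under pGAPDH. Its difference was -1.42 ± 0.15 (SE, limma adjusted p = 7.51e-08).

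For pAPOBEC3F against pGAPDH the leading elements were TRE6_020S0015.rev at 2.77 ± 0.04, TRE6_020S0057.rev at 2.31 ± 0.04 and TRE6_020S0055.rev at 2.23 ± 0.05 (SE). TRE6_020S0015.rev had 6614 and 6594 RNA reads, against 2749 and 2796 DNA reads, under pAPOBEC3F, and 18290 and 19541 RNA reads, against 8038 and 8154 DNA reads, under pGAPDH. The lowest was TRE6_020S0046.rev at -1.05 ± 0.07 (SE, limma adjusted p = 3.79e-07), with 246 and 240 RNA reads against 2172 and 2305 DNA reads under pAPOBEC3F. Between pAPOBEC3F and pMYC the differences ran from -1.29 ± 0.13 for TRE6_020S0051.rev (limma adjusted p = 0.00042) to 1.13 ± 0.26 for TRE6_020S0049.fwd (SE, limma adjusted p = 0.0118). TRE6_020S0051.rev had a ratio of 0.02 ± 0.06 under pAPOBEC3F and 1.21 ± 0.10 under pMYC (n = 2 each, SD).

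In the enhancer read-out, 33 of 114 TRE6_020S elements were higher under pMYC than under pGAPDH (19.8% of all elements) and 7 lower (8.49% of all elements). Under pAPOBEC3F against pGAPDH, 20 of 114 were higher (15.7% of all elements) and 7 lower (3.92% of all elements). Under pAPOBEC3F against pMYC, limma called 0 of 107 higher (0.0445% of all elements) and 0 lower (0% of all elements). For this last comparison 12 elements had an unadjusted limma p under 0.05, edgeR called 0, the fit with the replicate number as a block called 1 lower, and leaving out RNA replicate 1 or 2 gave 3 or 4 higher and 11 or 8 lower. Without centring, 0 were higher and 113 lower for pMYC against pGAPDH, 0 and 114 for pAPOBEC3F against pGAPDH, and 99 lower for pAPOBEC3F against pMYC. Without DNA replicate 1 or 2, the elements higher under pMYC than under pGAPDH numbered 18 and 18 and those higher under pAPOBEC3F than under pGAPDH 11 and 8, and the lower ones numbered 0 in each. The lower count for pAPOBEC3F against pGAPDH was 13 without RNA replicate 1 and 23 without RNA replicate 2, and that for pMYC against pGAPDH was 11 without RNA replicate 2.

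TRE6_020S0055.rev stood out in both enhancer comparisons with pGAPDH. Its difference was 1.82 ± 0.07 for pMYC and 1.76 ± 0.10 for pAPOBEC3F (SE, limma adjusted p = 2.53e-10 and 4.01e-08). Under pAPOBEC3F it had 383 and 382 RNA reads, against 439 and 416 DNA reads, and under pGAPDH 1931 and 2121 RNA reads, against 720 and 741 DNA reads. TRE6_020S0044.fwd was highest for pMYC against pGAPDH, at 1.98 ± 0.32 (SE, limma adjusted p = 0.000293). TRE6_020S0069.fwd was higher by 1.28 ± 0.11 and TRE6_020S0071.fwd by 1.17 ± 0.13 under pAPOBEC3F than under pGAPDH (SE). TRE6_020S0071.fwd had an enhancer ratio of 1.09 ± 0.10 under pAPOBEC3F and 1.13 ± 0.10 under pMYC, against -0.19 ± 0.02 under pGAPDH (n = 2 each, SD).

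Across the TRE6_020S elements, the promoter ratios under different minimal promoters correlated with Pearson's r = 0.847 for pMYC and pGAPDH (n = 114), 0.648 for pAPOBEC3F and pGAPDH (n = 115) and 0.932 for pAPOBEC3F and pMYC (n = 108). Without TRE6_020S0033, whose reverse orientation had no value under pAPOBEC3F, they were 0.802, 0.651 and 0.931. The enhancer ratios correlated at 0.699 (n = 114), 0.73 (n = 114) and 0.878 (n = 107) in the same order. The ratios share libraries and depth, so these values describe the tables only.

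A pair of further name groups of the same pool, TRE6_060S with 120 elements and TRE6_200S with 48, were set beside the TRE6_020S elements as a description. Not all of them had values. In both read-outs the TRE6_060S medians rest on 105 elements under pMYC, 102 under pAPOBEC3F and 114 under pGAPDH. The TRE6_200S medians rest on 20, 21 and 38 in the same order, so the element sets differ between minimal promoters. In the promoter read-out under pAPOBEC3F the median ratio was 0.31 for TRE6_020S, 1.20 for TRE6_060S and 0.76 for TRE6_200S. Under pMYC the medians were 0.38, 0.65 and 0.17, and under pGAPDH -0.06, -0.07 and -0.59, in the same order. In the enhancer read-out they were 0.30, 0.33 and 0.24 under pMYC, 0.10, 0.25 and 0.01 under pAPOBEC3F, and -0.01, 0.01 and -0.08 under pGAPDH. The TRE6_200S elements had medians of only 15 and 12 RNA reads in the enhancer read-out under pAPOBEC3F. The groups differed in coverage, with medians of 1789, 869.5 and 291 DNA reads in replicate 1 of the pAPOBEC3F promoter table, and elements are not replicates of a group, so no test was made.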

How the data were processed

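The 6 tables of the plasmid pool with 3 minimal promoters were used, from 8 libraries of K-562 cells, 2 RNA and 2 DNA for each read-out. The deposited tables hold signal values of these libraries, whose scaling the file headers do not state. Log2 fold changes (RNA over DNA) and adjusted p-values come from a limma fit by the authors, per the file headers, and the method of adjustment is not given in the sources used here. Per the submitters' processing notes, fastp, edgeR, limma and build hg38 were used. The aligner and the barcode matching are not given in the sources used here. Within each column, 100% of the values were whole multiples of 1 step (tolerance 0.02), which was taken as 1 read. In 5 of the 24 columns the lowest value was 1 step and 100 or more values lay at up to 20 steps, so that low values alone fix the step. In the other columns low values were fewer, the step rests on the common divisor of the 60 lowest values, and the read numbers and edgeR fits depend on it. Read totals run from 200722 to 10167588 RNA reads per library and minimal promoter.

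From these reads, log2 RNA/DNA ratios were computed per replicate with 0.5 reads added, and they differed from the authors' log2 fold changes by at most 0.0535. Forward minus reverse and pairs of minimal promoters were fitted with limma 3.58.1 in R 4.3.3 on log2 ratios of reads within a library, RNA against DNA libraries, with a variance trend on mean log2 reads, at least 10 DNA reads and Benjamini-Hochberg adjustment over all loci or shared elements. Pairs of minimal promoters were centred on the median of all shared elements. Per the labels' protocols, the cells of a replicate were split between its RNA and DNA library, so the ratios per replicate pair libraries of the same number. The main limma fits did not include this pairing, and the replicate number as a block was an alternative. The deviations of paired libraries correlated between -0.074 and 0.028. edgeR 4.0.16 and the other settings given at the end were alternatives, and fits were tested on simulated data. Python 3.11.15 with pandas 2.3.3 and numpy 2.4.6 was used.

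Elements were named by rule: per table the 5 highest and 3 lowest called, up to 12 called in 1 direction in all 6 tables, and per comparison the 3 largest differences either way, with the 3 largest rank shifts between read-outs. Other elements named with values (such as TRE6_020S0014, TRE6_020S0047, TRE6_020S0033 and TRE6_020S0069 outside the rule) were picked with their values known. The elements, lists and tests were chosen with earlier results of these data known. The precision of a ratio is limited by read depth and by the 2 replicates. Set 1 of the series, which holds 0 of these elements, served only to count element names.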

Additional observations from a re-analysis of the deposited data

Results flagged for a closer look

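Differences were singled out where the tested difference passed the threshold and the authors' calls lay in opposite directions on its 2 sides. This was so for 22 of 339 tested differences between orientations (6.49%; 5.29% over the pool) and 43 of 672 between minimal promoters (6.40%; 4.19% over the pool) among the TRE6_020S elements, of which those that the naming rule also picks are given here.

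For orientation, forward minus reverse in the promoter read-out, TRE6_020S0010 had 1.59 under pMYC and 1.25 under pAPOBEC3F, and TRE6_020S0021 had 2.21 under pMYC. In each of these the forward orientation was called higher and the reverse was called lower. TRE6_020S0018 had -0.67 under pAPOBEC3F and -0.88 under pGAPDH, TRE6_020S0008 had -0.82 under pGAPDH and TRE6_020S0070 had 0.86 under pGAPDH. In the enhancer read-out, TRE6_020S0010 had 0.79 under pMYC and 0.96 under pAPOBEC3F, and TRE6_020S0023 had -0.59 under pMYC. The 4 differences of TRE6_020S0010 all have the forward orientation above and the reverse below 0.

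Between minimal promoters, TRE6_020S0042.rev differed by -0.91 in the promoter read-out for pAPOBEC3F minus pGAPDH, called lower under pAPOBEC3F and higher under pGAPDH. TRE6_020S0056.fwd differed by 1.11 in the promoter read-out for pAPOBEC3F minus pMYC, called higher under pAPOBEC3F and lower under pMYC. TRE6_020S0071.fwd differed by 1.17 in the enhancer read-out for pAPOBEC3F minus pGAPDH, called higher under pAPOBEC3F and lower under pGAPDH. The calls depend on each table's own zero point, and the differences between minimal promoters depend on the median of the shared elements on which they were centred.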

How the results depend on the processing

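Of 354 recomputed counts, 262 stayed within 1.5 times the reported count and 92 did not; of the values of named elements, 1343 stayed, 159 moved by more than the spread between replicates, 54 lost significance and 1 reversed. The 1 is the enhancer ratio of TRE6_020S0063.fwd under pAPOBEC3F, which is 0.40 without replicate 2 and -1.60 without replicate 1. The cause was not tested for any of these changes, except that a stricter limit lowers a count by construction. In this paragraph, groups of 3 counts follow the order pMYC, pAPOBEC3F, pGAPDH. Requiring a log2 fold change of at least 1 left 33, 34 and 4 elements higher and 2, 1 and 2 lower in the promoter read-out, and 17, 8 and 1 higher and 1, 0 and 0 lower in the enhancer read-out. With edgeR on recovered reads, 46 and 55 were lower under pMYC and pAPOBEC3F in the promoter read-out and 21 and 21 in the enhancer read-out. A limma fit made here and centred on the table median gave 38 lower under pMYC in the promoter read-out. In the enhancer read-out it gave 18 and 16 lower under pMYC and pAPOBEC3F. An adjusted p under 0.01 left 2 lower in the pMYC enhancer read-out, 9, 2 and 6 loci with an orientation difference in the enhancer read-out, and 3 and 2 elements lower in the enhancer read-out for pMYC and pAPOBEC3F against pGAPDH. A difference of at least 1 left 14, 8 and 2 loci by orientation in the promoter read-out and 3, 2 and 0 in the enhancer read-out.

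For pairs of minimal promoters, a difference of at least 1 left 17 higher and 1 lower for pMYC minus pGAPDH, 23 and 1 for pAPOBEC3F minus pGAPDH and 2 and 1 for pAPOBEC3F minus pMYC in the promoter read-out, and 5 and 1 for pMYC minus pGAPDH and 4 and 0 for pAPOBEC3F minus pGAPDH in the enhancer read-out. Without centring the counts were 1 and 113, 0 and 114, and 3 and 80 in the promoter read-out, and 0 and 113, 0 and 114, and 99 lower in the enhancer read-out. With the replicate number as a block, 3 loci differed by orientation in the pAPOBEC3F enhancer read-out and 1 element was lower for pAPOBEC3F minus pMYC in the enhancer read-out; the block moved no other count by over 1.5 times.

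Leaving out 1 library at a time, the enhancer counts of lower elements ran from 0 to 8, 2 to 20 and 16 to 28, and that of higher elements under pAPOBEC3F from 22 to 49. Loci with an orientation difference ran from 20 to 40 in the pAPOBEC3F promoter read-out and from 4 to 22, 1 to 19 and 0 to 22 in the enhancer read-out. For pAPOBEC3F minus pMYC, higher elements ran from 19 to 38 and lower ones from 13 to 40 in the promoter read-out, and from 0 to 4 and 0 to 11 in the enhancer read-out. For pMYC minus pGAPDH in the enhancer read-out they ran from 18 to 38 and 0 to 11, and for pAPOBEC3F minus pGAPDH from 8 to 27 and 0 to 23. A lone library is assumed to vary like the others. The counts of elements higher or lower in RNA come here from limma fits made for this report and not from the deposited ones. Depth limits the pAPOBEC3F enhancer read-out most, with medians of 86.5 and 99 RNA reads for these elements.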
